A study of Mus musculus with 768 samples.

Results

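The glycosyltransferases described here are the Golgi enzymes that start, extend, branch and sialylate the common glycans of secreted and membrane proteins. They were chosen by symbol from the 51734 features of the count tables: every gene of the Galnt, Mgat, B4galt, B3galt, St6gal, St6galnac and St8sia series, together with C1galt1, C1galt1c1, Fut8, Fut10 and Fut11. This gave 57 genes. No value of a gene entered this rule, but the members were chosen with earlier results of these data known. Of the 57, 30 reached a mean of 5 CPM (counts per 1e6 counts of the group) over the 3 groups of cells and were compared, as were 10260 of all features.

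The cells were mouse endothelial cells, sorted singly into plates as CD45-negative and CD31-positive, and sequenced with Smart-seq2, which reads whole transcripts without molecular identifiers. LN_HEV are MECA-79-positive cells of lymph node high endothelial venules (HEVs), TU_HEV carry MECA-79 too but were taken from tumours of the PyMT model of mammary cancer, and TU_EC are endothelial cells of such tumours that lack MECA-79. MECA-79 is an antibody against sulfated O-glycans that L-selectin on lymphocytes binds, so the gate itself selects on a product of Golgi glycosylation. Plates had 96 wells, and LN_HEV filled 2 (pool1 and pool2), TU_HEV 2 (pool3 and pool4) and TU_EC 4 (poolA to poolD). The sample labels name no animal, age, strain or treatment, so each group was 1 sample and no test was possible. The spread between plates is given instead, and it does not measure the spread between animals.

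After filters, 63 and 79 cells of the LN_HEV plates, 50 and 48 of the TU_HEV plates and 68, 81, 82 and 72 of the TU_EC plates were summed by group, with 142672877, 146215450 and 221773977 counts. The median total per cell was 1056162, 1431389 and 625611 counts. Of the pool1 libraries, 14 held nearly all counts of 22 tumour libraries gene by gene (at least 99.8% of the counts of each), and the 11 of them that hold 19 tumour libraries were left out of LN_HEV. The other 3 were kept, since the rule that chose the genes drops only those 11. Counts of tumour libraries made up 66.1% of S26, 13.7% of S29 and 6.97% of S33, which are these 3. Leaving them out as well, a check added after seeing the data, lost or gained no call. Ribosomal RNA took 13.5%, 8.09% and 25.3% of the counts of these groups, in the same order. The LN_HEV plates were unlike in this, at 23.8% in pool1 and 6.39% in pool2. The 5 pan-endothelial genes summed to 5370, 6765 and 5804 CPM, and Chst4, the sulfotransferase of the MECA-79 epitope, stood at 1101, 206.98 and 0 CPM. The 5 lymphatic markers summed to 10.2, 14.7 and 225.9 CPM, and the 3 markers of dividing cells to 35.8, 60.3 and 103.3 CPM. Leukocyte markers summed to 3.38 to 11.6 CPM, mural and fibroblast markers to 2.02 to 9.98 CPM, and epithelial markers to at most 0.253 CPM, with Epcam at 0 in every group. The part of these other cells in the results was not tested. TU_EC libraries also carry their own series of library numbers and their own table, and that difference and the group cannot be told apart.

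Mucin-type O-glycans start when a GALNT enzyme adds N-acetylgalactosamine to serine or threonine. C1galt1 extends it with galactose to core 1, and its chaperone C1galt1c1 keeps the enzyme folded. N-glycans are trimmed and then branched by MGAT enzymes, each of which adds N-acetylglucosamine at its own position. B4GALT enzymes add galactose to those branches, and sialyltransferases cap them. In HEVs, sialylated, fucosylated and sulfated O-glycans on mucin-like proteins are the ligands that slow lymphocytes on the vessel wall.

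A member was called when its CPM differed at least 2-fold between 2 groups and every plate of the higher group lay above every plate of the other. In all, 18 of the 30 were called in at least 1 comparison. TU_HEV held more than LN_HEV of 10 members (33.3%) and less of 2 (6.67%), where 19.7% and 7.15% of all features were called higher and lower. TU_HEV held more than TU_EC of 7 members (23.3%) and less of 1 (3.33%), where the shares of all features were 16.5% and 4.81%. LN_HEV held more than TU_EC of 5 members (16.7%) and less of 10 (33.3%), where the shares of all features were 13.1% and 13.3%. The median log2 ratio of the 30 members was 0.59, 0.48 and -0.71 in these comparisons, beside 0.29, 0.39 and 0.12 for all features. The comparisons share groups, so their calls are not independent of each other.

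**Figure D1:**
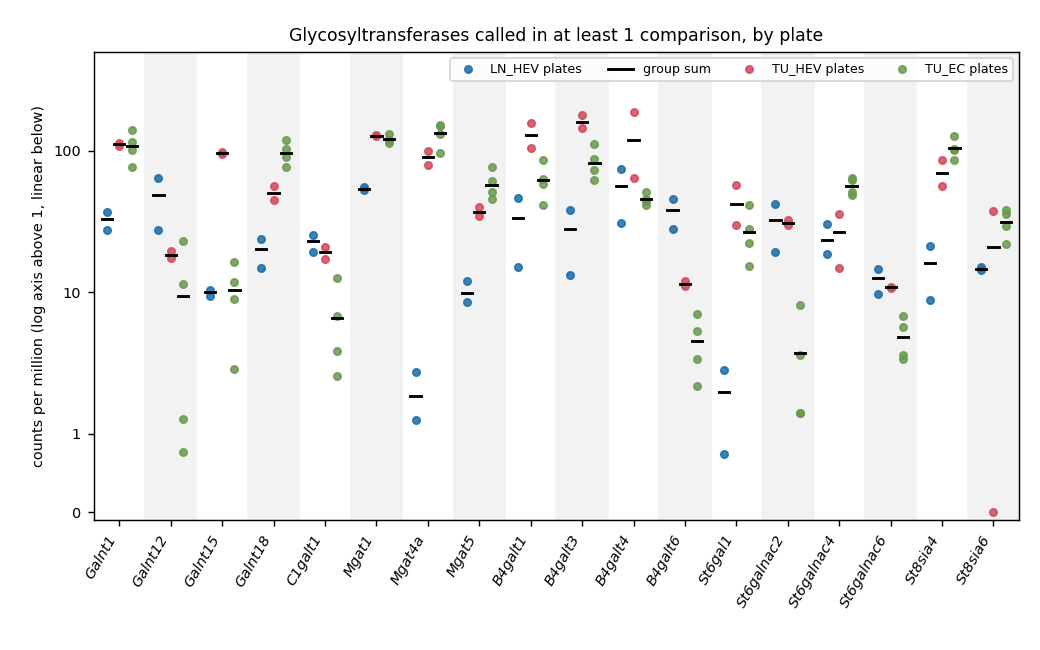
Level of the 18 called glycosyltransferases in CPM (vertical axis, logarithmic above 1 and linear below), 1 point per plate coloured by group, with a bar at the value of the summed group. Mgat4a and St6gal1 lie below 3 CPM in both LN_HEV plates and above 15 CPM in every tumour plate, and Galnt15 lies near 95 to 98 CPM in both TU_HEV plates and at or below 16.5 CPM in all others.

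The widest gap between lymph node and tumour cells was found for a gene of N-glycan branching. Mgat4a (chromosome 1 from 37439340 to 37541016, GRCm38), which adds a branch to the arm of the N-glycan that Mgat1 has opened, was nearly absent from lymph node HEV cells. It stood at 2.72 and 1.25 CPM in pool1 and pool2, at 79.3 and 99.7 CPM in pool3 and pool4, and at 150.5, 151.9, 132.2 and 96.9 CPM in poolA to poolD. The LN_HEV counts came from 2 cells, whereas 44 of 98 TU_HEV cells had a count. TU_HEV held 49.0 times the LN_HEV level (95% interval for counting error 43.4 to 55.6), and LN_HEV stood 72.2-fold below TU_EC (interval 64.0 to 81.9). With every pool1 library kept these ratios were 5.64 and 8.32, and with each cell thinned to 100000 counts 29.6 and 45.8. All intervals of ratios printed here are of counting error alone, and copies made by PCR are not separate molecules. Intervals of shares of cells take the cells of a group as independent, and they do not cover the spread between animals.

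Mgat5, which adds the branch that is often extended with N-acetyllactosamine, went the same way at lower levels. It stood at 12.0 and 8.53 CPM in the LN_HEV plates, 40.0 and 34.4 CPM in the TU_HEV plates and 45.6 to 77.0 CPM in the TU_EC plates. No plate of LN_HEV overlapped a tumour plate. TU_HEV was 3.71-fold above LN_HEV (interval 3.5 to 3.94), and LN_HEV was 5.81-fold below TU_EC (interval 5.50 to 6.15). Mgat1, the enzyme that opens the path to complex N-glycans, was even between plates of a group, at 55.3 and 53.2 CPM in LN_HEV, 129.4 and 127.3 CPM in TU_HEV and 113.9 to 130.9 CPM in TU_EC. Its ratio was 2.37 for TU_HEV against LN_HEV and 2.24 in favour of TU_EC against LN_HEV. The first call of Mgat1 was lost with TMM factors, relative to the median of all features, and with every pool1 library kept, and the second with every pool1 library kept. Cells with a count of Mgat1 after thinning were not in the order of its CPM, at 48.2% in LN_HEV, 39.8% in TU_HEV and 58% in TU_EC. The share was lowest in TU_HEV, against the direction of its call over LN_HEV. The intervals of LN_HEV (39.7% to 56.8%) and TU_HEV (30.0% to 50.2%) overlap.

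Mgat2, which acts just after Mgat1, and Mgat4b, the other enzyme of the Mgat4 branch, were not called. Mgat2 stood at 129.8 and 209.7 CPM in LN_HEV, 101.2 and 147.6 CPM in TU_HEV and 76.2 to 125.9 CPM in TU_EC, and the plates of LN_HEV and TU_HEV overlap. Mgat4b stood at 47.5 and 48.5 CPM in LN_HEV and 45.4 and 86.1 CPM in TU_HEV, so pool3 lay below both lymph node plates. Levels of different genes were set side by side per kilobase of exon. The length was that of all annotated exons of a gene (12881 bases for Mgat4a, 2614 for Mgat2), not of the transcripts made. On this scale Mgat2 made up 69.1% of the MGAT family in LN_HEV, 43.7% in TU_HEV and 33.1% in TU_EC. Its plate values were 61.9% and 72.8%, 41.7% and 44.8%, and 30.1% to 36.3%, and no group overlaps another. Mgat4a made up 0.147%, 6.32% and 9.44%. The whole family summed to 97.9, 111.4 and 109.97 CPM per kilobase, and its plate sums overlap between the groups. These shares do not depend on scaling by the total, but they do depend on the lengths used. By CPM alone, TU_EC held 133.7 CPM of Mgat4a and 95.1 CPM of Mgat2.

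**Figure D2:**
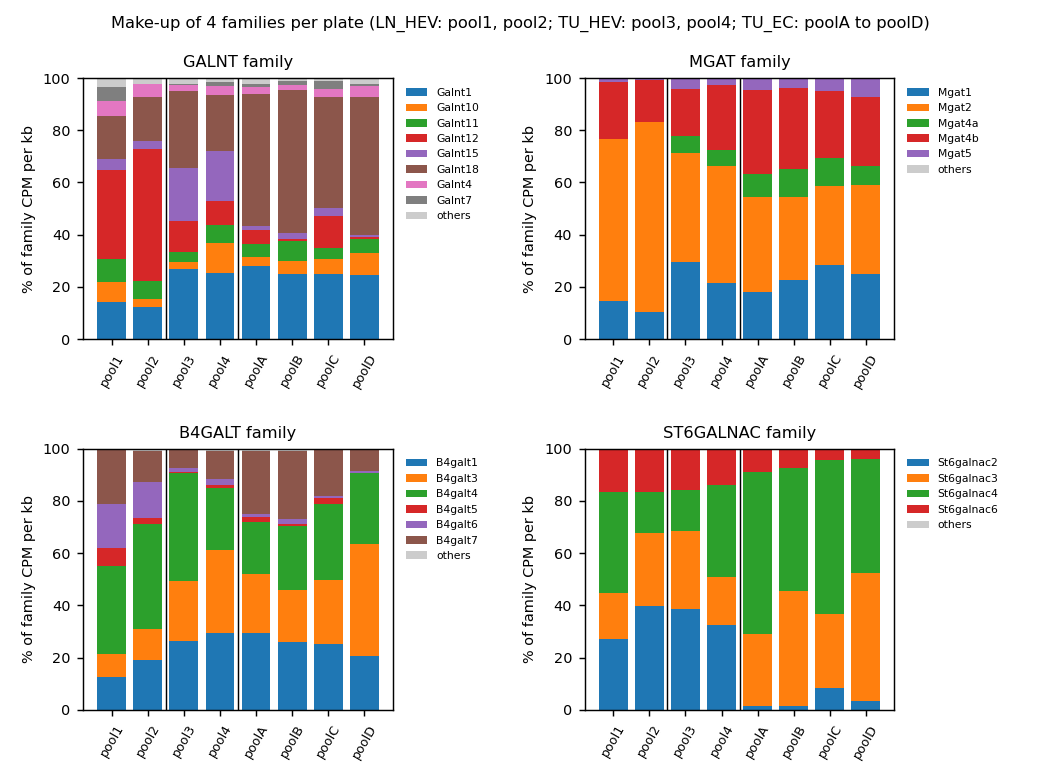
Make-up of the GALNT, MGAT, B4GALT and ST6GALNAC families in each plate, as the percent of the family's summed CPM per kilobase of exon (vertical axis, stacked bars, members under 5% in every plate pooled as others). Mgat2 fills 61.9% and 72.8% of the MGAT bars of the LN_HEV plates, Galnt15 fills 20.4% and 19.0% of the GALNT bars of the TU_HEV plates, and St6galnac2 is thin in the 4 TU_EC plates.

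Among the sialyltransferases, St6gal1 and St8sia4 were low in lymph node and higher in both tumour groups. St6gal1 (chromosome 16 from 23224740 to 23360350), which caps N-glycan galactose with sialic acid and so makes ligands of the B cell lectin CD22, stood at 0.736 and 2.84 CPM in LN_HEV. It stood at 57.4 and 29.9 CPM in TU_HEV and at 22.1, 15.4, 41.1 and 27.8 CPM in TU_EC. The lymph node plates lie below all tumour plates, whereas the TU_HEV and TU_EC plates overlap. Of the LN_HEV counts, 83.7% came from 1 of 4 cells with a count. TU_HEV was 21.2-fold above LN_HEV (interval 18.9 to 24.0) and LN_HEV 13.5-fold below TU_EC (interval 12.0 to 15.2). These ratios were 5.11 and 3.24 with every pool1 library kept, 7.98 and 4.53 without the endothelial and contaminant rule, and 57.1 and 36.2 without pool2. B cells carry much St6gal1. Ms4a1, a B cell marker, stood at 0.0350, 0.0137 and 0.0225 CPM in the groups, whereas Cd79a, another B cell gene, stood at 1.53, 1.47 and 0 CPM, and at 3.20 CPM in pool1 and 3.33 CPM in pool3. The part of B cell RNA in these values was not tested. St6gal2, the other member of this family, had no count in any group.

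Mgat4a, Mgat1 and St6gal1 were also the 3 of the 8 members called higher in TU_HEV than in LN_HEV and listed in the RefSeq promoter table (build GRCm38.p6) that held the letters GGAAGT, which hold the GGAA core of ETS factor sites, on either strand in the 250 bases before a start. These letters were chosen with the data known and occur in 22.2% of the 27025 genes of the table, in 6 of 22 listed members at 5 CPM and in 10 of 42 listed members of any level. Mgat4a and St6gal1 each hold 1 match and Mgat1 holds 4 over its listed starts, counting both strands. A window of 60 bases is shown for each gene, 5′ to 3′ on the strand of the gene, with every match inside it in capitals, and the distance given is that of the GGAAGT match. The Mgat1 window holds 2 matches, the first of them on the opposite strand (ACTTCC).
Mgat4a (chr1:37541080-37541139, minus strand, match starting 97 bases before the start): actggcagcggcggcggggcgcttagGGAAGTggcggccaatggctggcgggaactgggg
Mgat1 (chr11:49244131-49244190, plus strand, 19 bases before): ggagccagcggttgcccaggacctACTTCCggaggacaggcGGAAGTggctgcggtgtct
St6gal1 (chr16:23290382-23290441, plus strand, 62 bases before): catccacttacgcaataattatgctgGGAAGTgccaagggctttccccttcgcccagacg
The St6gal1 window precedes a start inside the span of the gene. A match is only a run of letters, and it was not tested whether any factor binds there. ACGTGGC and TGACGTGG are 2 runs of letters found before genes that answer to Golgi or endoplasmic reticulum stress. They were looked for on both strands in the 250 bases before each listed start and found in 0 of the 42 listed members. They occur in 2.33% and 0.603% of the genes of the table.

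St8sia4, which builds chains of polysialic acid, was called lower in lymph node in both comparisons with tumour cells. It stood at 8.87 and 21.2 CPM in LN_HEV, 86.3 and 56.4 CPM in TU_HEV and 85.6 to 127.1 CPM in TU_EC. TU_HEV was 4.31-fold above LN_HEV (interval 4.12 to 4.51), and 7.86-fold without pool2. LN_HEV was 6.5-fold below TU_EC (interval 6.23 to 6.79), and 11.8-fold without pool2. St8sia6, which adds a second sialic acid to sialylated O-glycans, was absent from pool3 (0 CPM) and stood at 37.7 CPM in pool4, the most uneven of the compared members between plates of a group. In TU_HEV 98.96% of its counts came from 5 of 9 cells with a count. LN_HEV held 15.0 and 14.5 CPM of it and TU_EC 22.0 to 38.4 CPM, a 2.13-fold lower level in LN_HEV (interval 2.03 to 2.24), and that call was lost without poolD.

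Galnt15 (chromosome 14 from 32028989 to 32062197), a GALNT enzyme, was the one member that stood high in tumour HEV cells against both other groups by over 5-fold. It was measured at 95.1 and 97.7 CPM in the TU_HEV plates, at 9.47 and 10.3 CPM in the LN_HEV plates, and at 8.97, 11.8, 16.5 and 2.88 CPM in the TU_EC plates. Neither TU_HEV plate comes near a plate of another group. The ratios were 9.69 over LN_HEV (interval 9.18 to 10.2) and 9.32 over TU_EC (interval 8.91 to 9.74), and LN_HEV and TU_EC did not differ beyond their plates, at a ratio of 0.961. With every pool1 library kept, the ratio over LN_HEV was 4.82. Counts were spread over 50 of 98 TU_HEV cells, and the cell with the most held 7.57% of them.

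The share of cells with a count of Galnt15, taken from the same counts as the ratios, was also higher in TU_HEV. After thinning to 100000 counts, which evens the total but not the part of it that was ribosomal RNA (13.5%, 8.09% and 25.3% of counts in LN_HEV, TU_HEV and TU_EC), 46.9% of 98 TU_HEV cells had a count of Galnt15 (exact binomial interval 36.8% to 57.3%), against 10.6% of LN_HEV cells (6.08% to 16.9%) and 8.33% of 300 TU_EC cells (5.47% to 12.1%). Before thinning, 50 TU_HEV, 18 LN_HEV and 28 TU_EC cells had one. Only 1 LN_HEV cell and 3 TU_EC cells were too shallow to thin.

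The other GALNT enzymes changed rank between the groups. Galnt12 (chromosome 4 from 47091909 to 47123070) led the family per length in LN_HEV, with 45.5% of it, and held 10.3% in TU_HEV and 5.37% in TU_EC. It stood at 27.5 and 64.0 CPM in LN_HEV, 19.6 and 17.4 CPM in TU_HEV and 11.4, 1.28, 23.1 and 0.768 CPM in TU_EC. LN_HEV plates lie above all tumour plates, but the tumour groups overlap. The ratio of LN_HEV was 2.67 over TU_HEV (interval 2.56 to 2.80) and 5.25 over TU_EC (interval 5.00 to 5.52). Without pool2 these were 1.5, no longer called, and 2.95, and the ratio over TU_EC was 11.5 without poolC and 8.07 with thinned cells.

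Galnt1 and Galnt18 were the leading GALNT genes of tumour cells. Galnt1, a widely expressed starter of O-glycans, stood at 27.7 and 36.9 CPM in LN_HEV, 108.8 and 113.9 CPM in TU_HEV and 76.4 to 139.8 CPM in TU_EC. It was 3.37-fold higher in TU_HEV than in LN_HEV (interval 3.27 to 3.49) and 3.25-fold lower in LN_HEV than in TU_EC (interval 3.15 to 3.36). Galnt18 stood at 14.9 and 23.6 CPM in LN_HEV, 56.3 and 44.9 CPM in TU_HEV and 76.5 to 118.6 CPM in TU_EC, 3 levels without overlap. The ratio of TU_HEV over LN_HEV was 2.49, LN_HEV was 4.85-fold below TU_EC, and TU_HEV was 1.95-fold below TU_EC, just short of the rule. Per length, Galnt18 made up 49.7% of the family in TU_EC, 24.8% in TU_HEV and 16.5% in LN_HEV, and Galnt1 made up 25.9% in TU_HEV, the largest share there. The TU_HEV plates differed in this rank. Galnt18 led in pool3 (29.6%, beside 26.7% for Galnt1) and Galnt1 in pool4 (25.4%, beside 21.4% for Galnt18). Galnt4, Galnt7, Galnt10 and Galnt11 were compared and not called. Galnt10 had a ratio of 2.84 over LN_HEV in TU_HEV but overlapping plates, at 15.8 and 10.7 CPM in LN_HEV and 12.7 and 55.1 CPM in TU_HEV, where pool3 lies between the lymph node plates.

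C1galt1 (chromosome 6 from 7844842 to 7875687), the core 1 enzyme on which the MECA-79-bearing O-glycans of HEVs are in part built, was higher in both MECA-79-positive groups than in TU_EC. It stood at 19.3 and 25.6 CPM in LN_HEV, 17.2 and 20.9 CPM in TU_HEV, and 2.54, 12.5, 3.83 and 6.83 CPM in TU_EC. The ratio over TU_EC was 3.47 for LN_HEV (interval 3.26 to 3.69) and 2.91 for TU_HEV (interval 2.73 to 3.10), and 5.26 and 4.41 without poolB, against the same TU_EC cells. The plates of LN_HEV and TU_HEV overlap. Of the TU_HEV counts, 75.2% came from 5 of 16 cells with a count. After thinning, cells with a count made up 17.0% of LN_HEV (interval 11.2% to 24.3%), 14.3% of TU_HEV (8.04% to 22.8%) and 7.33% of TU_EC (4.65% to 10.9%). The intervals of TU_HEV and TU_EC overlap. The chaperone C1galt1c1 was not called, at 23.6 and 50.2 CPM in LN_HEV, 81.0 and 29.4 CPM in TU_HEV and 25.0 to 45.4 CPM in TU_EC.

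St6galnac2 (chromosome 11 from 116675303 to 116694868), which adds sialic acid to the first sugar of O-glycans, was higher in both MECA-79-positive groups as well, at larger ratios. It stood at 19.3 and 41.9 CPM in LN_HEV, 32.4 and 29.8 CPM in TU_HEV and 1.39, 1.41, 8.06 and 3.58 CPM in TU_EC. The lowest MECA-79-positive plate lies above the highest TU_EC plate. LN_HEV was 8.86-fold above TU_EC (interval 8.22 to 9.55) and TU_HEV 8.4-fold (interval 7.79 to 9.06). Without poolC these ratios were 15.7 and 14.9, and without pool2 the first was 5.23. In TU_EC 98.9% of the counts came from 5 of 8 cells with a count. After thinning, cells with a count made up 19.9% of LN_HEV (interval 13.6% to 27.4%), 19.4% of TU_HEV (12.1% to 28.6%) and 1.67% of TU_EC (0.543% to 3.85%). The tables list St6galnac2 in 2 rows, which were summed, and the smaller row held 1.89% of its counts in the table of LN_HEV and TU_HEV. An antisense gene, 1810032O08Rik, overlaps 8.58% of its exon bases, and the strand setting of the counting is not given in the sources used here.

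The other enzymes of this family had their own patterns. St6galnac6, which acts on gangliosides, stood at 9.74 and 14.5 CPM in LN_HEV, 11.0 and 10.7 CPM in TU_HEV and 3.35 to 6.75 CPM in TU_EC. It was 2.60-fold higher in LN_HEV than in TU_EC (interval 2.41 to 2.8) and 2.24-fold higher in TU_HEV (interval 2.07 to 2.42). The first call was lost with equal weight per cell, with thinned cells and with every pool1 library kept, and the second without ribosomal and mitochondrial features in the total, with TMM factors and relative to all features. St6galnac4, which adds sialic acid to O-glycans that already carry one, went the other way, at 30.6 and 18.7 CPM in LN_HEV, 14.9 and 35.9 CPM in TU_HEV and 48.3 to 64.2 CPM in TU_EC. It was 2.4-fold lower in LN_HEV than in TU_EC (interval 2.31 to 2.49) and 2.12-fold lower in TU_HEV (interval 2.05 to 2.20). The first call was lost without pool2, and the second without pool3, with equal weight per cell, with thinned cells and without the endothelial and contaminant rule, whereas without pool4 TU_HEV stood 3.79-fold lower. St6galnac3, another ganglioside enzyme, was not called in any comparison. Per length, St6galnac2 made up 35.9%, 35.1% and 3.85% of the family and St6galnac4 23.1%, 27.0% and 52.6% in LN_HEV, TU_HEV and TU_EC, while the family summed to 15.7, 15.2 and 16.6 CPM per kilobase.

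**Figure D3:**
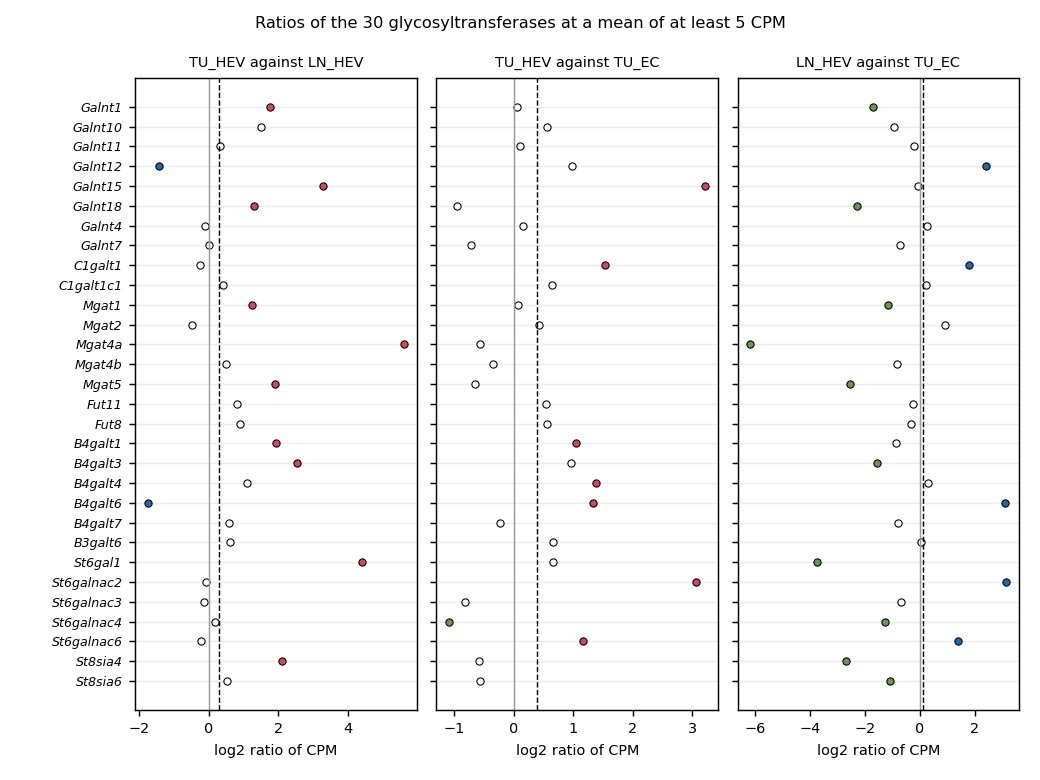
Log2 ratios of CPM (horizontal axes) of the 30 members at a mean of at least 5 CPM, in the 3 comparisons, with called members filled in the colour of the group with the higher level (red TU_HEV, blue LN_HEV, green TU_EC). The dashed line is the median of all features, and Galnt15 and St6galnac2 lie farthest to the right for TU_HEV against TU_EC.

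Transcripts of several B4GALT members were higher in tumour HEV cells than in one or both of the other groups. B4galt1, the broadest of these enzymes, stood at 15.1 and 46.3 CPM in LN_HEV, 157.9 and 105.04 CPM in TU_HEV and 41.1 to 86.4 CPM in TU_EC, and no TU_HEV plate overlaps another group. Its ratio was 3.83 over LN_HEV (interval 3.71 to 3.95) and 8.5 without pool2. Over TU_EC the ratio was 2.07 (interval 2.03 to 2.12), and that call was lost without pool3, without poolD, without the endothelial and contaminant rule, without ribosomal and mitochondrial features in the total, with TMM factors and relative to all features.

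B4galt3, a close relative, stood at 13.3 and 38.1 CPM in LN_HEV, 179.5 and 146.2 CPM in TU_HEV and 62.6 to 111.9 CPM in TU_EC, 3 levels without overlap. The ratio over LN_HEV was 5.76 (interval 5.57 to 5.96), 3.30 with every pool1 library kept and 12.1 without pool2. LN_HEV was 2.95-fold below TU_EC, 6.18-fold without pool2 and 1.69-fold, no longer called, with every pool1 library kept. TU_HEV over TU_EC missed the rule at 1.95-fold. Exons of Ppox on the other strand overlap 14.5% of the exon bases of B4galt3.

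B4galt4, which prefers N-acetylglucosamine that carries a sulfate, was uneven within TU_HEV. It stood at 189.7 CPM in pool3 and 64.6 CPM in pool4, at 30.8 and 74.0 CPM in LN_HEV and at 41.5 to 51.3 CPM in TU_EC. Pool4 lies between the lymph node plates, so the 2.13-fold ratio over LN_HEV was not called. The ratio over TU_EC was 2.61 (interval 2.55 to 2.68), 4.14 without pool4 and 1.41, no longer called, without pool3, and its call was also lost with TMM factors, with thinned cells and relative to all features. Per length B4galt4 was the leading member of the family in LN_HEV (38.5%) and TU_HEV (33.9%), and B4galt3 in TU_EC (26.3%, beside 25.6% for B4galt1 and 24.9% for B4galt4). Within TU_HEV, B4galt4 led in pool3 (41.4%) but not in pool4 (23.9%, below 31.8% for B4galt3 and 29.5% for B4galt1). Within TU_EC, B4galt3 led only in poolD (43.2%).

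B4galt6, which makes lactosylceramide, the base of most glycosphingolipids, ran from lymph node down to tumour. It stood at 27.8 and 45.8 CPM in LN_HEV, 12.0 and 11.0 CPM in TU_HEV and 5.36, 7.00, 3.39 and 2.19 CPM in TU_EC. The plates of the 3 groups do not overlap. Of the TU_HEV counts, 85.7% came from 5 of 12 cells with a count. TU_HEV was 3.36-fold lower than LN_HEV (interval 3.18 to 3.55) and 2.52-fold higher than TU_EC (interval 2.33 to 2.72), and LN_HEV was 8.44-fold above TU_EC (interval 7.89 to 9.04). With TMM factors and relative to all features, the call over TU_EC in TU_HEV was lost. After thinning, 39.7% of LN_HEV cells, 10.2% of TU_HEV cells and 7.67% of TU_EC cells had a count. The intervals of TU_HEV (5.00% to 18.0%) and TU_EC (4.92% to 11.3%) overlap. B4galt5, the related enzyme for the same lipid, was under the level for comparison, at 7.05, 3.30 and 3.19 CPM.

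The enzymes of the linker that joins glycosaminoglycans to proteins, B4galt7 and B3galt6, were not called in any comparison. B4galt7 stood at 17.2 and 20.1, 30.3 and 26.6, and 11.5 to 48.9 CPM in the plates of LN_HEV, TU_HEV and TU_EC. B3galt6 stood at 7.34 and 21.8, 17.5 and 29.5, and 8.04 to 20.8 CPM. Fut8, which adds the core fucose of N-glycans, was not called either, at 15.3 and 21.6, 47.1 and 26.2, and 21.9 to 27.5 CPM, nor was Fut11, at 32.5 and 46.4, 67.1 and 74.5, and 32.3 to 61.4 CPM. The TU_HEV plates of Fut8 and Fut11 lay above the LN_HEV plates, but the group ratios were 1.87 and 1.75, under the rule. Fut11 made up 76.7%, 78.9% and 78.3% of the summed level per length of Fut8, Fut10 and Fut11.

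**Figure D4:**
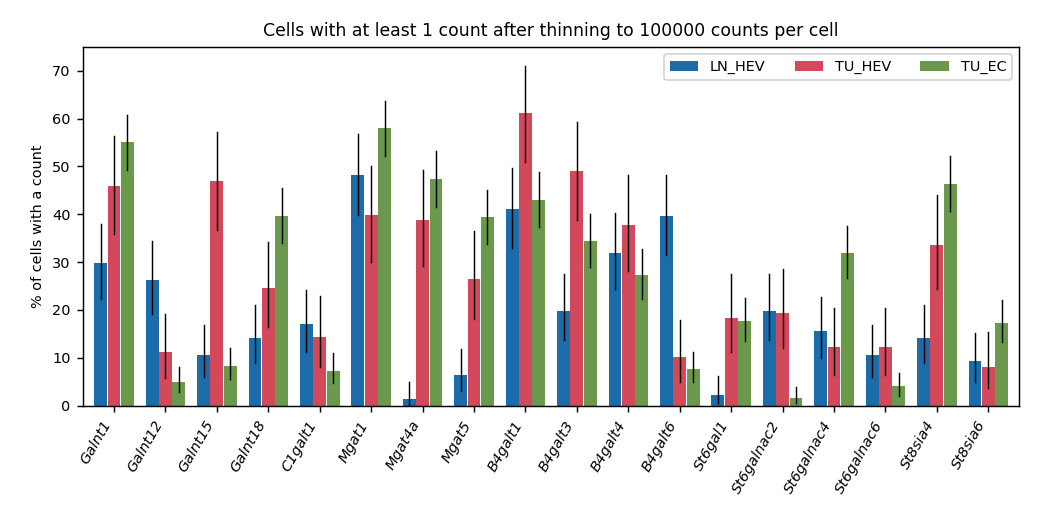
Percent of cells with at least 1 count (vertical axis) of each of the 18 called members after thinning to 100000 counts per cell, as bars for LN_HEV, TU_HEV (98 cells) and TU_EC (300 cells), with exact 95% binomial intervals as lines. Mgat4a is found in 1.42% of LN_HEV cells against 38.8% and 47.3% of tumour cells, and St6galnac2 in 1.67% of TU_EC cells.

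At this depth most members were found in a minority of cells. The median cell held a count of 6 of the 30 members in LN_HEV, 8 in TU_HEV and 7 in TU_EC, with a highest value of 19. Within TU_HEV, the share of cells with a count was higher in cells with Chst4 than in cells without it, in both plates, for 15 of the 30 members, lower in both for 2, and neither for 13. The same count over all features was not made, so these numbers are not read as a trait of the members. The Spearman coefficient with Chst4, given as a description over cells of 1 plate, which share a library preparation, was 0.06 in pool3 (n = 50) and 0.47 in pool4 (n = 48) for B4galt1, 0.45 and 0.16 for B4galt7, 0.19 and 0.42 for Mgat4b, and -0.18 and 0.28 for Mgat4a. In pool4, 12 of 16 cells with a Chst4 count had a count of Mgat4b, against 8 of 32 cells without. In pool3 these were 8 of 25 and 6 of 25. St8sia6 had a count in 0 of 16 cells with Chst4 and 8 of 32 without in pool4, and in no cell of pool3.

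Of the 27 members under a mean of 5 CPM, 11 had no count in any group: B3galt5, Galnt3, Galnt5, Galnt9, Galnt13, Mgat3, Mgat4d, St6gal2, St6galnac1, St8sia3 and St8sia5. The floor of 3 counts of the group total, which stands for a count of 0, is 0.0210, 0.0205 and 0.0135 CPM in LN_HEV, TU_HEV and TU_EC. It is not an upper limit of the level, since counts of low members came from few cells. After thinning, 0 cells with a count leaves up to 2.58%, 3.69% and 1.22% of the cells of these groups (exact binomial intervals). Another 8 stayed below 1 CPM in every group, and 8 reached 1 CPM in at least 1: B3galt4, B4galt2, B4galt5, Fut10, Galnt2, Galnt6, Galnt16 and St8sia1. B3galt4, which acts on gangliosides, stood at 7.52 CPM in LN_HEV and 4.10 CPM in TU_EC and had no count in TU_HEV. St8sia1, the GD3 synthase, stood at 5.90 CPM in TU_EC, from 19 cells, and had no count in either MECA-79-positive group. Only Galnt7 among the 30 passed the level through 1 group, TU_EC, at 7.03 CPM.

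Genes around these enzymes were taken from 6 lists with 54 genes, of which 50 were compared. TU_HEV was called higher than LN_HEV for 9 of the 50 and lower for 6, higher than TU_EC for 9 and lower for 1, and LN_HEV higher than TU_EC for 8 and lower for 5, beside the shares of all features given above. Among the sialyltransferases that cap galactose at the other position, St3gal1 stood at 6.36, 47.1 and 46.9 CPM and St3gal5 at 3.25, 25.6 and 36.8 CPM in LN_HEV, TU_HEV and TU_EC. St3gal6, which caps selectin ligands, ran the other way, at 491, 217.9 and 46.7 CPM. Gcnt1, which branches core 1 to core 2, stood at 236.5 CPM in LN_HEV and at 8.47 and 8.54 CPM in the tumour groups. Gcnt2, the branching enzyme of I antigens, stood at 147.5 CPM in TU_HEV, beside 25.2 and 35.3 CPM. Man1a, a mannosidase that trims N-glycans before Mgat1 acts, stood at 490.1, 227.5 and 98.5 CPM, and Gne, which starts sialic acid synthesis, at 174.1, 53.2 and 54.2 CPM. Uap1, which makes the donor of N-acetylglucosamine, stood at 93.4, 186.6 and 19.5 CPM. Of the 14 genes for Golgi tethering and enzyme retention, TU_HEV was called higher than LN_HEV for 0 and lower for 1, Cog3, at 31.6, 12.0 and 19.8 CPM. Against TU_EC, TU_HEV was higher for 2, Cog5 (31.8, 32.3 and 15.0 CPM) and Gorasp1 (17.1, 19.4 and 7.99 CPM), and LN_HEV for 1, Gorasp1, with none lower (0).

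The comparison of TU_HEV with TU_EC moved most with scaling. TU_HEV was called higher for 7 members and lower for 1 by the total count, where 16.5% and 4.81% of all features were called. Without ribosomal and mitochondrial features in the total it was higher for 5 and lower for 3, beside 9.81% and 7.71% of all features. With TMM factors these were 3 and 6, beside 7.58% and 9.28%, and relative to the median of all features 3 and 3, beside 9.58% and 6.67%. C1galt1, Galnt15 and St6galnac2 stayed higher under each of these. Galnt18, Mgat4a, Mgat5, St6galnac3 and St8sia4 were called lower in TU_HEV with TMM factors.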

How the data were processed

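The deposited tables give unnormalised read counts, 1 column for each of 768 wells, per the file headers. Build mm10 (GRCm38), the read checker FastQC 0.11.4, the tool Subread 1.4.6-p2 and STAR 2.4.1b are listed in the submitters' processing notes. Their gene annotation and strand setting are not given in the sources read for this work. Rows with a repeated symbol were summed, which left 51734 features from 51826 rows. Positions and exon lengths came from GENCODE M21, and promoter sequences from RefSeq.

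Cells were kept with at least 50000 counts, 1000 genes with a count, at most 30% mitochondrial counts, 2 of 5 pan-endothelial genes at 10 CPM, and fewer than 3 of 6 genes at 10 CPM in each of 3 contaminant lists (epithelial and tumour, leukocyte, mural and fibroblast). This passed 79.7% of LN_HEV wells, 51% of TU_HEV wells and 78.9% of TU_EC wells, and 11 pool1 libraries were then left out by the rule that chose the genes. No doublet caller was run, since cells were sorted singly. Counts were summed over cells per group and per plate and scaled to CPM. Ratios have exact conditional 95% intervals, and a floor of 3 counts stands for a count of 0. Cells were thinned to 100000 counts (seed 1) for shares of cells and for Spearman coefficients on log2(CPM + 10).

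Named members were those called in any comparison at a mean of 5 CPM and the leading member of each family. The members and lists were chosen with earlier results of these data known. The rule for calls was checked on simulated counts whose plates differed by counting error alone. That check gives no error rate for plates as uneven as these. The alternatives were other scalings, other levels for comparison, other cell filters and leaving out each plate. Leaving out the 3 other holding libraries, the GGAAGT letters and a relation to Selp and Ackr1 within TU_EC were added after seeing the data. Python 3.11.15, pandas 2.3.3, scipy 1.17.1 and edgeR 4.0.16 (for TMM factors) were used.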

Additional observations from a re-analysis of the deposited data

How the results depend on the processing

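No paired analysis was possible because replicate numbers only name cells within a group. The median log2 ratio of the members, TU_HEV against TU_EC, was 0.18 and 3 members (7.71% of all features) were called lower when ribosomal and mitochondrial features were left out of the total. TMM factors gave medians of 0.30 against LN_HEV and 0.029 against TU_EC, with 3 higher and 6 lower in the latter (7.58% and 9.28% of all features). Equal weight per cell gave a median of -0.42 for LN_HEV against TU_EC, 0 members (4.79%) lower in TU_HEV than in TU_EC, and a Galnt1 share of the GALNT family in TU_HEV of 22.8%. Thinned cells gave -0.41, 0 (4.76%) and 22.3%. Comparing members at a mean of 1 CPM gave 5 (9.76%) lower in TU_HEV than in LN_HEV, 3 (5.99%) lower than in TU_EC, and a median of -0.30 for LN_HEV against TU_EC. At 20 CPM, 1 (4.38%) was lower in TU_HEV than in LN_HEV with a median of 0.99, 4 (16.4%) were higher in TU_HEV than in TU_EC with a median of 0.26, and 2 (11.4%) were higher in LN_HEV than in TU_EC. TU_HEV against TU_EC gave 0 lower (4.67%) without the endothelial and contaminant rule, 3 lower (6.71%) with a ratio of 1.5, and 3 higher and 3 lower (9.58% and 6.67%) relative to all features. The percentages in brackets are the shares of all features called under the same setting.

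Leaving out each plate in turn, the median was 0.53 to 1.13 for TU_HEV against LN_HEV (highest without pool2), 0.092 to 0.56 for TU_HEV against TU_EC (lowest without pool4) and -0.81 to -0.23 for LN_HEV against TU_EC (highest without pool1), 1 to 2 members (5.22% to 10.3%) were lower in TU_HEV than in TU_EC, and B4galt4 made up 33.8% to 40.03% of the B4GALT family in LN_HEV. The cause of these moves was not tested. Under the alternatives that could change the call of a member, 455 calls were kept, 30 were lost and 0 ratios changed sign. A further 7 calls, of B4galt6, C1galt1 and St6galnac6, were not made at 20 CPM because these members were no longer compared. With 1 sample a group and no molecular identifiers, levels of a few CPM rest on a few cells: the cells with the most counts set the LN_HEV values of Mgat4a and St6gal1.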

Other observations

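Among the MECA-79-negative tumour cells, 10, 10, 18 and 12 cells of poolA to poolD had a count of the venular genes Selp or Ackr1 after thinning. Across the cells of each plate, the Spearman coefficient of the members with these genes stayed between -0.33 and 0.35, and for no member was it past 0.2 in size with the same sign in all 4 plates. Galnt15, the member that stood high in tumour HEV cells, gave -0.12, 0.04, 0.27 and 0.04, and St6galnac2 gave -0.05, 0.30, 0.14 and -0.05. St8sia4 and St8sia6 were below 0 in each plate, at -0.12, -0.26, -0.26 and -0.20 and at -0.20, -0.20, -0.20 and -0.10. So were Galnt11, Mgat4a and St6galnac6, whereas B4galt1, Fut11 and St6gal1 were above 0 in each plate. This relation was chosen after seeing the data, coefficients of this size in sparse counts are not read as findings, and the cells of a plate share a library preparation.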
